A study of Mus musculus with 4 samples.

Results

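The levels of 9 interferon-stimulated genes were followed in undifferentiated spermatogonia of untreated mice and of mice recovering from busulfan. The genes were Ifitm1, Ifitm2, Ifitm3, Oasl2, Isg15, Ifit1, Irf7, Bst2 and Ifi27, which are 9 of the 27514 genes listed in all 4 single-cell libraries. They were picked by symbol as genes described as lower after busulfan, on the same comparison of busulfan with control cells that is described here, so that comparison is given for them without a test. Ifitm1, Oasl2, Isg15, Bst2 and Ifi27 were lower in BU within each experiment in both Gfra1+ and Sox3+ cells. For Isg15 in Gfra1+ cells, experiment 1 rested on only 8 UMIs in CTRL 1 and 2 in BU 1. Against the description, Ifitm3 overlapped between the groups in both classes and Ifitm2 was lower in Sox3+ cells but not in Gfra1+ cells, while Ifit1 and Irf7 were scarcely detected.

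Libraries were made from testis cells of C57BL/6J mice aged 6 to 8 weeks, sorted as E-cadherin positive, α6-integrin positive and c-KIT negative, which selects the undifferentiated spermatogonia that hold the stem cells and their first progenitors. Control mice (CTRL) were untreated, and treated mice (BU) had received a single dose of 10 mg/kg busulfan, an alkylating drug that kills most dividing germ cells, 10 days before. Each library pooled cells of 3 mice, so animals cannot be told apart within it, and the 2 experiments each contributed a CTRL and a BU library, so that n = 2 libraries per group throughout. Kit versions differ by experiment in the labels (2 in experiment 1 and 3.1 in experiment 2), whereas the study's methods name version 2 only.

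Interferons are secreted signals that bind receptors at the cell surface and, through the JAK kinases and the transcription factors these activate, switch on a large set of target genes. These targets are known as interferon-stimulated genes, and their products block virus entry, degrade or bind foreign RNA, hold new virions at the membrane and tag proteins for control. Many cell types, stem cells among them, also keep some of these genes active without added interferon, and members of the Ifitm family have long been known as markers of early germ cells.

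The libraries held 21136369 to 53579969 unique molecular identifiers (UMIs, each standing for 1 captured transcript). A cell was kept with more than 1000 genes detected and less than 20% of its UMIs from mitochondrial genes, which left 1120 to 3101 cells per library, with a median depth of 8066 to 34177 UMIs. CTRL 2 and BU 2 shared 70 cell barcodes (of 1120 and 1264 cells), CTRL 1 and BU 1 shared 7, BU 1 and CTRL 2 shared 1, and the other pairs none. Cells were classed by a normalised level above 2 (UMIs of the gene per 100000 UMIs of the cell, plus 1, as a natural log) of Gfra1, a receptor that marks stem cell-enriched spermatogonia, of Sox3, a marker of progenitors, or of Kit, a marker of the step towards differentiation. Values per library are given below as CTRL 1, CTRL 2, BU 1, BU 2. There were 585, 214, 865 and 528 Gfra1+ cells and 1470, 646, 473 and 264 Sox3+ cells. Kit+ cells numbered 36, 37, 322 and 156, so every Kit+ value of CTRL rests on few cells. Of 7 markers of undifferentiated spermatogonia, 7 were detected in every Gfra1+ and Sox3+ sum of UMIs. Detection in sums of this size could hardly fail, and 8 to 13 of 14 markers of somatic cells were detected in these sums too. It therefore does not establish what the cells of a class are.

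Sequence ahead of the genes differed between members. RefSeq promoter windows (build GRCm38.p6) were given for 8 of the 9 members, Ifi27 being the exception, and the 250 bases before each start were searched on both strands for 2 motifs. The core of the interferon-stimulated response element, GAAANNGAA, was present in 4 of the 8 (Isg15, Bst2, Ifit1 and Ifitm2), against 7.13% of the 32851 windows of the table. A gamma-activated site, TTCNNNGAA, was present in 1 (Bst2), against 7.02% of all windows, and overlapped its response element. The stretches with matches are shown 5′ to 3′ on the strand of the gene, with matched letters in capitals. Isg15 (chr4:156200856-156200916, minus strand) and Bst2 (chr8:71537568-71537628, minus strand) are 2 of the genes with lower levels after busulfan, Ifit1 (chr19:34640760-34640833, plus strand) was near zero, and Ifitm2 (chr7:140955979-140956027, minus strand) had most of its Gfra1+ UMIs in cells with somatic RNA.
Isg15: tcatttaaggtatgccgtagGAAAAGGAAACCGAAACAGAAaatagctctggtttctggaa
Bst2: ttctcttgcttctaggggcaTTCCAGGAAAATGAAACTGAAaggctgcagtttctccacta
Ifit1: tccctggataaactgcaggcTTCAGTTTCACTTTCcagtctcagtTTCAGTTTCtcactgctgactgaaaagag
Ifitm2: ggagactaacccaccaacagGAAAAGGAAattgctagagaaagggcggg

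The capitals hold 3 overlapping matches in Isg15 (78 to 58 bases before the start), 2 overlapping matches and the gamma-activated site in Bst2 (136 to 116 bases), 3 matches in Ifit1 read from the opposite strand (109 to 76 bases) and 1 in Ifitm2 (46 to 38 bases). Ifitm1 and Oasl2, the members with the largest BU to CTRL differences in Gfra1+ and Sox3+ cells, had neither string of letters in the 250 bases, and the same was true of Ifitm3 and Irf7. The 60 bases from 120 to 61 before the start are shown for the first pair, Ifitm1 (chr7:140967956-140968015, plus strand) and Oasl2 (chr5:114896814-114896873, plus strand). The RefSeq start used for Ifitm1 (140968076) lies 855 bases inside the gene as GENCODE outlines it, so sequence ahead of the outermost start was not searched for Ifitm1, while the starts of the other 7 genes lay within 57 bases of the GENCODE start.
Ifitm1: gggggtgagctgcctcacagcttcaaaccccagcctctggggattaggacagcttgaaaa
Oasl2: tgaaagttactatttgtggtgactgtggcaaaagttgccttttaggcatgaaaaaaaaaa

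Levels are CPM, the UMIs of a gene per 1000000 UMIs, of the summed cells of a class in a library. Class levels of the members, and of the genes most like them, are after TMM scaling over the 12 sums of 3 classes and 4 libraries. Levels of markers, of classes split by a further class gene, and of somatic-marked cells or cells of no class are without TMM. Listed genes were scaled over the 4 libraries within a class, and cycling against other Gfra1+ cells over the sums of that contrast. Sox3+ cells of CTRL had the highest levels of Ifitm1, Oasl2 and Isg15, and in BU these stood 26.4-fold, 5.83-fold and 5.05-fold lower. Part of the Sox3+ cells also passed for Kit. Counted below the Gfra1 threshold and without somatic or spermatid marks, these were 21 and 16 cells in CTRL and 128 and 79 in BU. Those of BU held 0 UMIs of Ifitm1. In Sox3+ cells below the Gfra1 and Kit thresholds and without somatic or spermatid marks, the differences were 15.3-fold, 3.87-fold and 3.87-fold. Ifi27 and Bst2 were present in all classes and were also lower in BU, by 2.56-fold and 1.59-fold in Sox3+ cells. Both experiments showed the difference for each of the 5 genes in Gfra1+ and in Sox3+ cells. That of Isg15 in Gfra1+ cells of experiment 1 rested on 8 UMIs in CTRL 1 and 2 in BU 1.

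**Figure D1:**
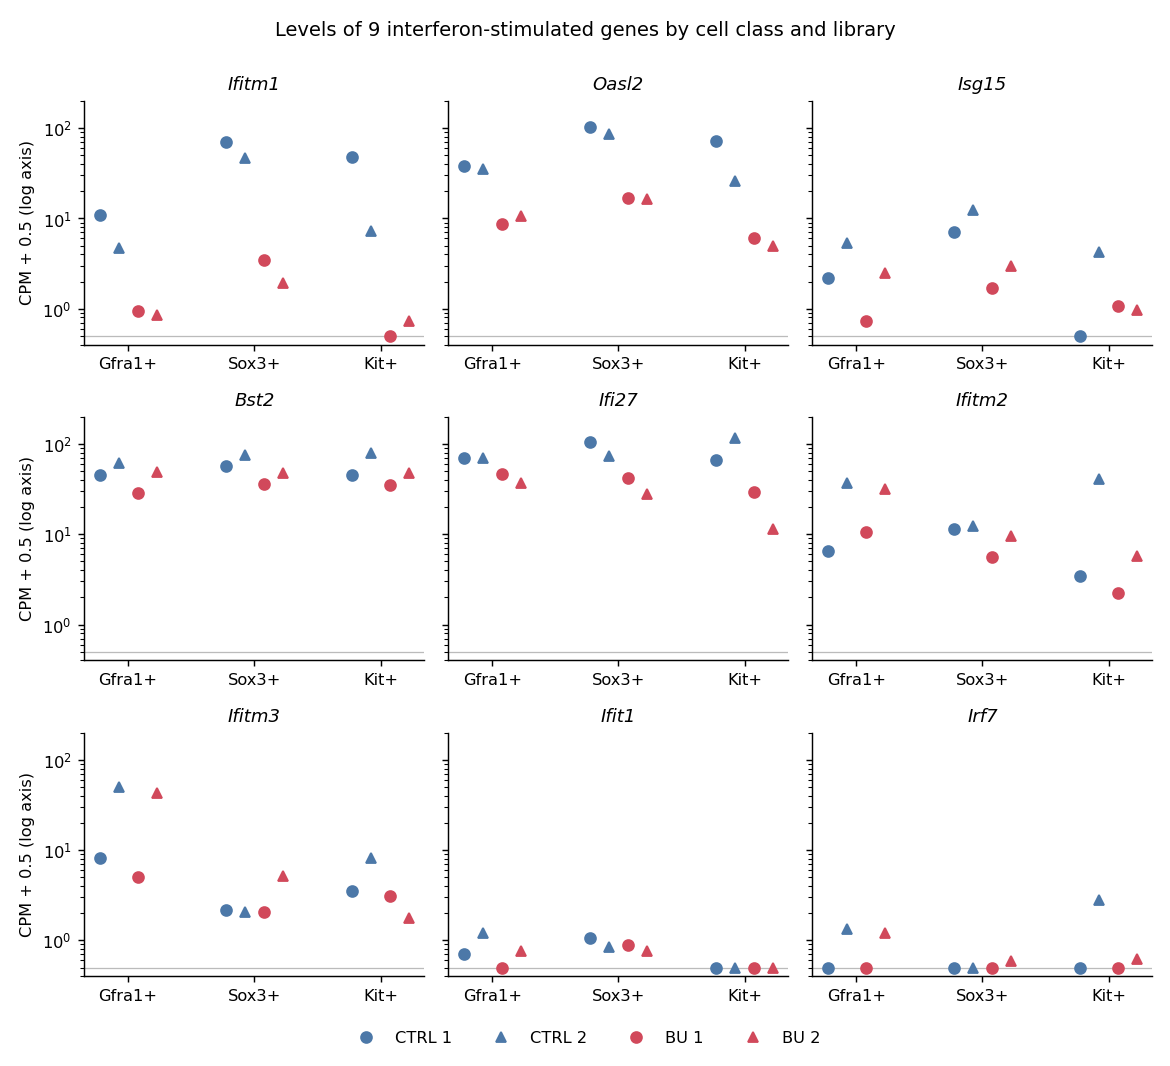
Level of each of the 9 genes (CPM plus 0.5, log axis) in Gfra1+, Sox3+ and Kit+ cells, with 1 point per library (blue CTRL, red BU, circles experiment 1, triangles experiment 2, the grey line marking a level of 0). In Sox3+ cells both BU points lie below both CTRL points for Ifitm1, Oasl2, Isg15, Bst2, Ifi27 and Ifitm2, whereas Ifitm3 overlaps and Ifit1 and Irf7 reach at most 0.841 CPM in Gfra1+ and Sox3+ cells.

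Ifitm1, Ifitm2 and Ifitm3 encode small transmembrane proteins that hinder the fusion of viruses with cell membranes, and lie within 55934 bases of chromosome 7 of GRCm38 (140954837 to 141010770), with Irf7 252 kb further along. Ifitm1 (ENSMUSG00000025491) stood at 70.0, 46.5, 2.97 and 1.45 CPM in the Sox3+ cells of CTRL 1, CTRL 2, BU 1 and BU 2. Both BU libraries were far below both CTRL libraries, with means of 58.3 ± 16.6 and 2.21 ± 1.08 CPM (SD, n = 2), a 26.4-fold difference that was 23.5-fold in experiment 1 and 32.2-fold in experiment 2. It rested on 2002 UMIs in CTRL and 32 in BU. In Gfra1+ cells the levels were lower and the difference in the same direction, with 10.5, 4.20, 0.448 and 0.347 CPM. CTRL averaged 7.36 ± 4.46 against 0.398 ± 0.0712 for BU (SD, n = 2), which is 18.5-fold. That ratio was 23.5-fold in experiment 1 and 12.1-fold in experiment 2, on 80 UMIs in CTRL and 12 in BU. Kit+ cells of CTRL held 25 UMIs of Ifitm1 and those of BU held 2, so no fold is given there.

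Ifitm2 (ENSMUSG00000060591) and Ifitm3 (ENSMUSG00000025492) did not follow Ifitm1. Ifitm3 stood at 7.77, 49.5, 4.48 and 42.5 CPM in Gfra1+ cells, so that the libraries parted by experiment and not by treatment. Its levels in Sox3+ cells were 1.66, 1.59, 1.59 and 4.68 CPM, and the groups overlapped. Ifitm2 stood at 6.09, 36.7, 10.1 and 31.5 CPM in Gfra1+ cells, higher in BU in experiment 1 and lower in experiment 2. In Sox3+ cells Ifitm2 was 11.1 and 11.98 CPM in CTRL and 5.15 and 9.19 in BU, where the groups did not overlap and the means differed 1.61-fold.

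Bst2 (ENSMUSG00000046718, chromosome 8, 71534255 to 71537456) encodes tetherin, a membrane protein that holds budding viruses at the cell surface. Its levels in Sox3+ cells were 56.996, 75.1, 35.7 and 47.7 CPM. BU was lower by nearly the same ratio in both experiments, 1.60-fold and 1.58-fold, with means of 66.1 ± 12.8 and 41.7 ± 8.47 (SD, n = 2). In Gfra1+ cells the levels were 45.2, 61.1, 28.3 and 49.0 CPM, and BU 2 lay above CTRL 1, so the groups overlapped although each experiment had the lower level in BU (1.59-fold and 1.25-fold). In Kit+ cells Bst2 stood at 44.7, 78.2, 34.8 and 47.7 CPM and the groups overlapped again.

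Oasl2 (ENSMUSG00000029561, chromosome 5, 114896936 to 114912234) belongs to the oligoadenylate synthetase family, whose members sense double-stranded RNA. In Sox3+ cells its levels were 103, 85.3, 16.5 and 15.9 CPM. CTRL averaged 94.3 ± 12.7 CPM and BU 16.2 ± 0.381 (SD, n = 2), which is 5.83-fold apart. Gfra1+ cells had 37.8, 34.8, 8.17 and 10.1 CPM (3.98-fold), and Kit+ cells had 71.6, 25.8, 5.56 and 4.51 CPM (9.67-fold). The groups did not overlap in any of the 3 classes, with 58 UMIs behind each Kit+ group.

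Isg15 (ENSMUSG00000035692, chromosome 4, 156199424 to 156200818) encodes a ubiquitin-like protein that is attached to other proteins during the interferon response. It was low throughout, with 6.63, 11.9, 1.19 and 2.47 CPM in Sox3+ cells, where 368 UMIs in CTRL and 35 in BU gave a 5.05-fold difference. In Gfra1+ cells its levels were 1.68, 4.91, 0.224 and 2.00 CPM, on 8, 35, 2 and 46 UMIs. BU was lower within each experiment, with few UMIs in experiment 1, but BU 2 exceeded CTRL 1 and the groups overlapped. Kit+ cells held 5 UMIs in CTRL and 6 in BU, which is too few to compare.

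Ifi27 (ENSMUSG00000064215, chromosome 12, 103434211 to 103440239) encodes a small hydrophobic protein of intracellular membranes. Its levels were 104, 72.6, 41.2 and 27.7 CPM in Sox3+ cells. CTRL averaged 88.3 ± 22.2 and BU 34.4 ± 9.60 (SD, n = 2), with the same ratio in both experiments (2.52-fold and 2.63-fold). Gfra1+ cells had 68.7, 69.5, 45.9 and 36.9 CPM, a 1.67-fold difference without overlap. In Kit+ cells Ifi27 stood at 65.6, 116, 29.0 and 10.99 CPM, and without cells carrying somatic RNA (below) the ratio there went from 4.55-fold to 2.40-fold.

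Ifit1 (ENSMUSG00000034459, chromosome 19, 34640871 to 34650009), which binds foreign RNA and blocks its translation, was covered by 12 UMIs in all Gfra1+ cells, 20 in Sox3+ cells and 0 in Kit+ cells. Irf7 (ENSMUSG00000025498, chromosome 7, 141262706 to 141266481), the transcription factor that amplifies interferon production, was covered by 22, 1 and 4 UMIs. At these counts a difference between BU and CTRL was not detectable for either gene.

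In Gfra1+ cells, both BU libraries lay below both CTRL libraries for 3 of the 9 genes, beside 15.6% of the 13632 genes tested in that class. The corresponding counts were 6 of 9 in Sox3+ cells, beside 23.6% of 14445 genes, and 4 of 9 in Kit+ cells, beside 13.6% of 11030 genes. Without the somatic-marked cells described below the counts were 4, 6 and 3 of 9, beside 15.6%, 23.4% and 15.4%. Nothing is read from these counts because the genes were chosen on this comparison. The median log2 difference (BU against CTRL, with 0.5 CPM added to each mean) over the 9 genes was -0.60, -0.66 and -1.55 in Gfra1+, Sox3+ and Kit+ cells. Over all genes tested the medians were 0.01, -0.01 and 0.14. The Gfra1+ median of the members was the value of Ifit1 (6 UMIs in CTRL and 6 in BU). That of Kit+ cells was the value of Irf7 (3 and 1 UMIs), so both rest on counts too low to compare. Without somatic-marked cells the members' medians were -0.47, -0.78 and -0.57. Single members ranged from -3.13 to -0.04 in Gfra1+ cells and from -4.44 to 0.78 in Sox3+ cells, so the 9 genes did not move as a block. Without the 70 barcodes shared by CTRL 2 and BU 2 the Sox3+ ratios of Ifitm1, Oasl2, Isg15, Bst2 and Ifi27 were 25.0, 5.78, 4.86, 1.59 and 2.55.

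A small number of cells with somatic RNA carried most of the Ifitm2 and Ifitm3 signal of the Gfra1+ class. Cells were called somatic-marked when 14 markers of testicular somatic, vessel and blood cells (among them Wt1, Insl3, Acta2, Pecam1 and Ptprc) made up over 0.05% of their UMIs, and 3, 10, 9 and 32 of the Gfra1+ cells were so marked. These cells held 1380 of the 1409 Ifitm3 UMIs of the Gfra1+ class (97.9%), 72.0% of its Ifitm2 UMIs and all 22 of its Irf7 UMIs. Over all marked cells Ifitm3 stood at 762 to 1366 CPM in the 4 libraries and Ifi27 at 367 to 701 CPM. Of the genes lower in BU, the marked cells held 3.26% (Ifitm1), 4.18% (Bst2), 17.7% (Oasl2), 24.7% (Ifi27) and 42.9% (Isg15) of the UMIs of Gfra1+ cells, and in Sox3+ cells at most 0.334% of the UMIs of Ifitm1, Oasl2, Isg15, Bst2 or Ifi27.

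**Figure D2:**
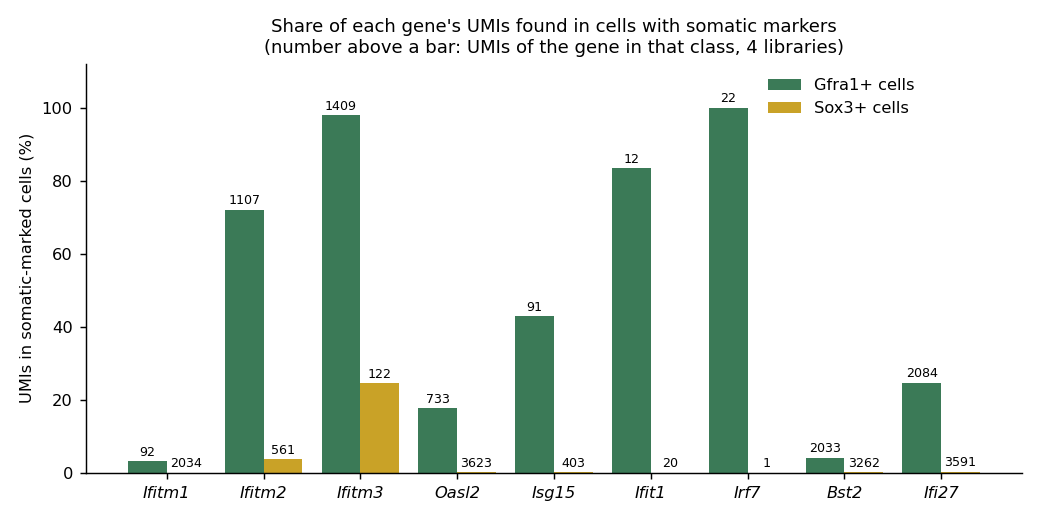
Share of each gene's UMIs (per cent, 4 libraries together) that lay in somatic-marked cells, for Gfra1+ cells (green) and Sox3+ cells (yellow), with the gene's UMIs in that class above each bar. Ifitm3 (97.9%), Irf7, Ifit1 and Ifitm2 (72.0%) came mostly from marked cells in the Gfra1+ class, while Ifitm1 and Bst2 did not.

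With the marked cells left out, Ifitm2 was higher in BU than in CTRL in Gfra1+ cells (8.28 ± 0.380 against 4.52 ± 0.998 CPM, SD, n = 2), and so was Ifitm3. The latter was left at 0.307 ± 0.435 CPM for CTRL and 0.773 ± 0.136 for BU (SD, n = 2), on 4 and 25 UMIs. The ratios of the 5 lower genes in Gfra1+ cells were then 19.2-fold for Ifitm1, 4.88-fold for Oasl2, 3.81-fold for Isg15, 1.39-fold for Bst2 and 1.82-fold for Ifi27. Behind the Ifitm1 ratio were 78 UMIs in CTRL and 11 in BU. For Isg15 there were 27 in CTRL and 25 in BU, and BU 1 held only 1. In Sox3+ cells the ratios were 26.9-fold, 6.08-fold, 5.29-fold, 1.63-fold and 2.64-fold, so they were as large or larger without marked cells. Summed over all 14 markers, somatic RNA stood at 29.2, 135, 28.8 and 120 CPM in Gfra1+ cells and at 46.4, 44.3, 27.6 and 28.2 CPM in Sox3+ cells. Macrophage markers, 8 genes, summed to 3.8, 89.0, 9.0 and 58.2 CPM in Gfra1+ cells, of which 0.4, 0.8, 1.9 and 2.6 were left without the marked cells.

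The share of cells with a transcript showed the same difference once cells were brought to one depth. Every cell was reduced by random draws to 5000 UMIs, and 65, 5, 18 and 4 Gfra1+ cells and 41, 8, 6 and 5 Sox3+ cells were left out for holding fewer. Oasl2 was then found in 38.1% of Sox3+ cells of CTRL 1 (exact binomial 95% interval 35.5 to 40.6%) and 29.5% of CTRL 2 (26.0 to 33.2%), and in 6.85% of BU 1 (4.73 to 9.54%) and 5.02% of BU 2 (2.70 to 8.43%). Without thinning Oasl2 was found in 52.5%, 80.5%, 13.1% and 31.4%. After thinning, Ifitm1 was found in 22.3%, 17.6%, 0.642% and 1.16% of these cells, and Ifi27 in 32.5%, 28.2%, 15.4% and 11.6%. Before thinning the classes had median depths of 7258 to 43090 UMIs, and germ cells rich in spermatid RNA, taken as a type that should lack these transcripts, had 10772 to 30928. Of these spermatid-rich cells of CTRL 2, 3.95% (3 of 76, 0.822 to 11.1%) had an Oasl2 UMI and 0 of 76 an Ifitm1 UMI, which allows a share of up to 3.95%. The BU shares of Oasl2 in Sox3+ cells lay inside the interval of that spermatid-rich share. Those of Ifitm1 were below the limit that 0 of 76 allows. Cells of CTRL 2 do not measure free RNA of the BU libraries. In BU 2, 0 of 48 thinned spermatid-rich cells had an Oasl2 UMI, which allows up to 6.25%, above the 5.02% of Sox3+ cells. Without thinning, 1.92% of spermatid-rich and 31.4% of Sox3+ cells of BU 2 had an Oasl2 UMI. For Ifitm1 these shares were 0% and 3.79%. Whether the BU shares came from free RNA was not tested. Intervals and limits cover counting error only, and UMIs found in a cell can come from free RNA.

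**Figure D3:**
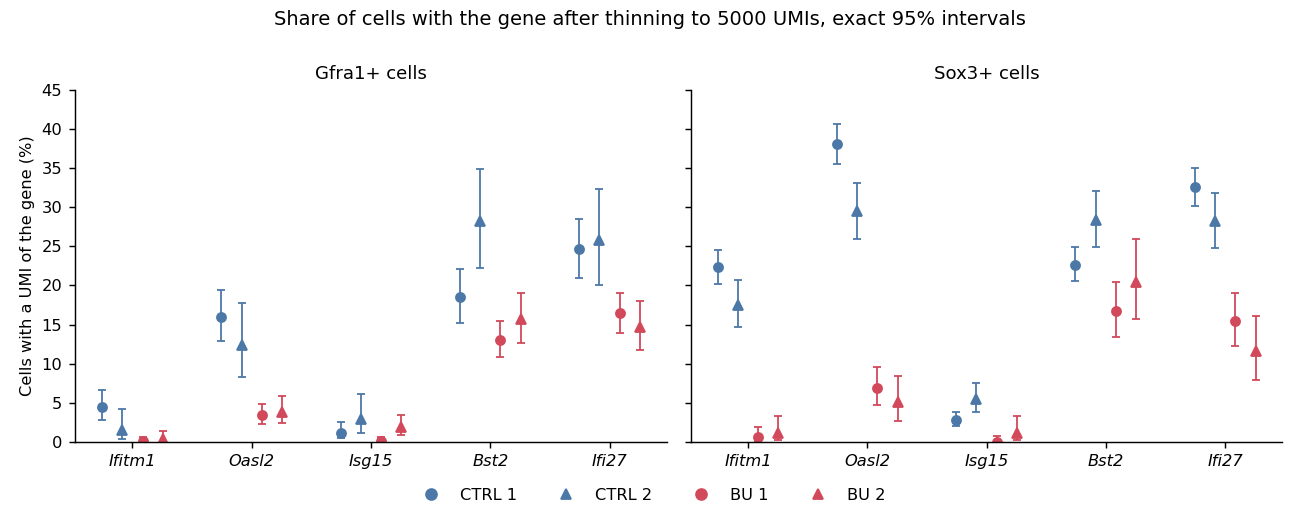
Share of Gfra1+ (left) and Sox3+ (right) cells with at least 1 UMI of the gene after thinning to 5000 UMIs per cell, by library, with exact binomial 95% intervals that cover counting error only. In Sox3+ cells the CTRL points of Oasl2 lie at 38.1% and 29.5% and the BU points at 6.85% and 5.02%. Both BU points also lie below both CTRL points for Ifitm1, Isg15, Bst2 and Ifi27.

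Counting Ifitm1, Oasl2, Isg15, Bst2 and Ifi27 together in the thinned cells without somatic marks, no transcript of any of the 5 was seen in 27.8% and 31.6% of CTRL Sox3+ cells and in 67.0% and 67.4% of BU Sox3+ cells. At least 2 of the 5 were seen in 34.3% and 31.3% of CTRL cells and in 5.58% and 6.20% of BU cells. Gfra1+ cells without any of the 5 made up 50.6% and 52.0% in CTRL and 70.5% and 74.6% in BU. Within CTRL Sox3+ cells, Ifitm1 was seen in 28.9% of CTRL 1 cells with Oasl2 and in 18.3% of those without, and in 20.4% and 16.6% of CTRL 2 cells. Thinned cells often miss a transcript that is present, so these shares cannot tell how closely the 2 genes are tied.

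Cell state also differed between BU and CTRL within a class. Cycling cells, those with a summed normalised level of 5 mitotic genes above 4, made up 17.8% and 16.6% of the CTRL Sox3+ cells and 56.0% and 51.9% of the BU Sox3+ cells. Restricted to Sox3+ cells that were not cycling, the CTRL to BU ratio was 15.4 for Ifitm1, 5.39 for Oasl2, 3.30 for Isg15, 1.55 for Bst2 and 2.23 for Ifi27, and both BU libraries stayed below both CTRL libraries for each. In Gfra1+ cells that were not cycling the ratios were 17.0, 3.53, 2.09, 1.60 and 1.41 in the same order of genes, and the groups overlapped for Isg15. The Ifitm1 ratio there rested on 70 UMIs in CTRL and 6 in BU. Progenitor markers, 5 genes (Sox3, Neurog3, Rarg, Upp1 and Ddit4), summed to 681, 554, 258 and 222 CPM in Sox3+ cells and to 200, 177, 51.8 and 58.9 CPM in Gfra1+ cells, and 8 stem cell markers to 117, 131, 195 and 290 CPM and 624, 660, 828 and 950 CPM. The stem cell markers did not move together in Gfra1+ cells. Nefm (64.4, 175, 199 and 385 CPM), Lhx1 (37.8, 67.1, 123 and 147 CPM) and Eomes (29.8, 18.1, 34.6 and 32.1 CPM) were higher in both BU libraries. Ret was lower in both (76.1, 70.1, 54.8 and 51.5 CPM), and Gfra1, Etv5, Id4 and Egr2 overlapped between the groups. Differentiation markers, 6 genes, summed to 684, 403, 856 and 593 CPM in Sox3+ cells. That sum overlapped between the groups. Of these genes, Kit stood at 2.05, 6.61, 48.6 and 65.7 CPM, Stra8 at 70.2, 41.9, 286 and 173 CPM and Dmrtb1 at 14.3, 9.81, 50.1 and 55.7 CPM. Sohlh2 stood at 39.5, 34.9, 72.3 and 58.0 CPM and Rhox13 at 37.9, 17.2, 82.1 and 45.2 CPM. Each was higher in both BU libraries than in both CTRL libraries. Sohlh1, the gene of the list with the highest level, was lower in BU within each experiment (520, 292, 317 and 195 CPM). How far these shifts within a class bear on the member levels was not tested.

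The classes themselves were then compared. The genes were picked with their levels in each of these classes in view, so this contrast does not lie outside that choice. The genes were chosen with earlier results of these data known, so the counts and p-values of this contrast are not independent of that choice. Sums of cells that passed for only 1 of Gfra1, Sox3 and Kit were fitted in edgeR with a term for each library, and p-values were adjusted (Benjamini-Hochberg) over all 13273 genes tested. Levels that follow are CPM of all UMIs in cells without somatic or spermatid marks and below the Kit threshold. Ifitm1 stood at 3.14 and 2.00 CPM in CTRL cells that passed for Gfra1 but not Sox3, at 26.2 and 8.08 in those that passed for both, and at 70.3 and 49.9 in those that passed for Sox3 alone. Oasl2 went from 24.8 and 12.8 to 62.4 and 58.0 and to 100 and 85.2 CPM over the same steps. In each library of either group the levels of both genes were lowest in the first and highest in the last of these 3 classes. For Ifitm1 in BU these steps rested on 1, 3 and 12 UMIs in BU 1 and on 5, 1 and 16 in BU 2. That is too few to order the first and the middle class.

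**Figure D4:**
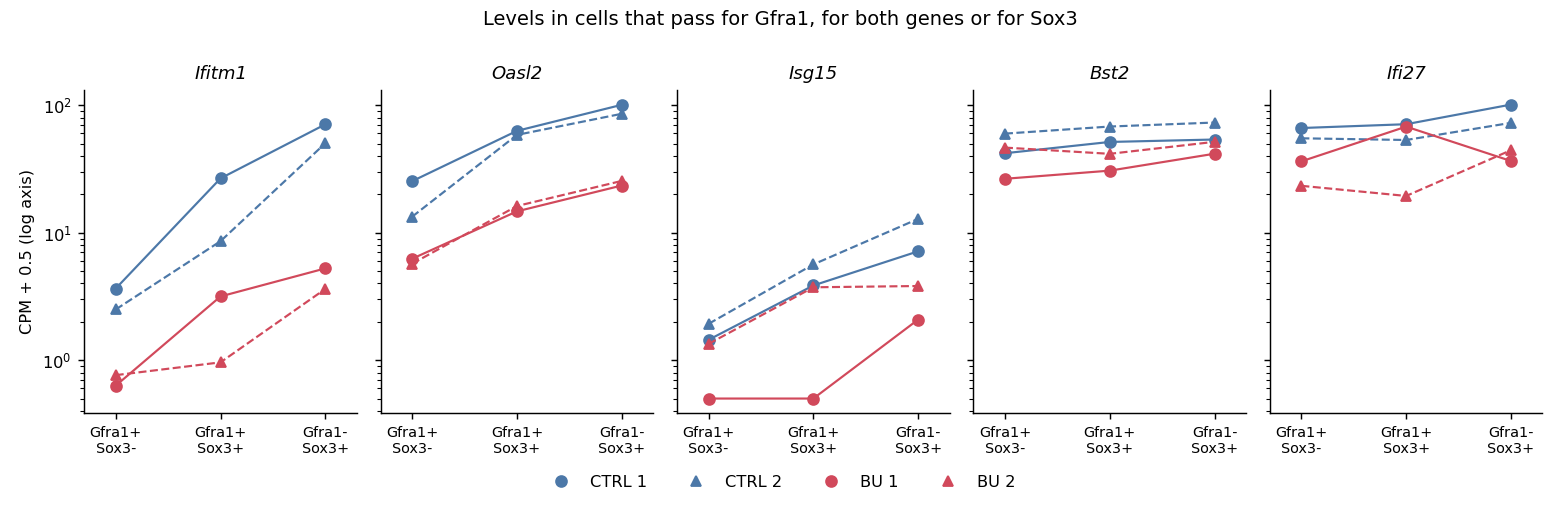
Level (CPM plus 0.5, log axis) of 5 genes in cells that passed for Gfra1 alone, for Gfra1 and Sox3, or for Sox3 alone, with 1 line per library (blue CTRL, red BU, solid experiment 1, dashed experiment 2). Ifitm1 and Oasl2 climb from left to right in all 4 libraries, from 3.14 and 2.00 to 70.3 and 49.9 CPM for Ifitm1 in CTRL. Bst2 differs less between the left and right points, at 41.5 and 59.4 against 53.3 and 72.6 CPM in CTRL. In BU these were 26.0 and 46.0 against 41.1 and 51.1 CPM. The left and middle Ifitm1 points of BU rest on 1 to 5 UMIs each.

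In CTRL, Sox3+ cells exceeded Gfra1+ cells by 4.59 in Ifitm1 (log2, SE 0.42, adjusted p = 1.02e-05, edgeR), which is 24.1-fold, and by 2.13 in Oasl2 (SE 0.19, adjusted p = 7.97e-06), which is 4.37-fold. Isg15 was also higher, by 1.79 (SE 0.48, adjusted p = 0.0205, edgeR), and lost its call without BU 2 (adjusted p = 0.051). Of 7 members tested these 3 rose and Ifitm3 fell, beside 10.3% of all genes that rose and 10.9% that fell. Bst2 (0.42, SE 0.15, adjusted p = 0.0741, edgeR) and Ifi27 (0.27, SE 0.25, adjusted p = 0.485) did not pass. Leaving out somatic-marked cells, 6 of 6 members tested were higher in Sox3+ cells, beside 14.3% of all genes (14.2% were lower): Ifitm1 (4.65), Isg15 (3.09), Oasl2 (2.43), Ifitm2 (1.64), Ifi27 (0.62) and Bst2 (0.43), with adjusted p between 3.65e-11 and 0.0149 (edgeR). Ifitm2, at -1.13 with all cells, thus turned its direction, and Ifitm3, at -4.97 with all cells, no longer had the counts to be tested.

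The same order of classes was present in BU. Ifitm1 was higher in Sox3+ than in Gfra1+ cells by 3.74 (log2, SE 0.77, adjusted p = 0.00729, edgeR) and Oasl2 by 1.62 (SE 0.22, adjusted p = 0.000507). The call of Ifitm1 was lost without BU 1 (edgeR, adjusted p = 0.233) or BU 2 (0.191), and that of Oasl2 without BU 1 (0.0828). Of 7 members 2 rose, beside 5.05% of all genes, and 1 fell, beside 5.42%. The latter was Ifitm3 (log2 -2.27, adjusted p = 0.0216, edgeR), -0.71 without BU 2 (adjusted p = 0.973). Isg15 stood at 1.24 (adjusted p = 0.237, edgeR) with all cells and passed at 2.26 (SE 0.63, adjusted p = 0.0134) without somatic-marked cells, when 3 of 6 members rose, beside 9.03% of all genes, and none fell, beside 10.7%.

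Kit+ cells were lower than Sox3+ cells in part of the members. In BU, where 152 and 53 cells passed for Kit alone, Oasl2 was lower by 2.89 (log2 -2.89, SE 0.37, adjusted p = 0.000669, edgeR) and Ifi27 by 1.59 (log2 -1.59, SE 0.42, adjusted p = 0.0305). Isg15 passed as well (adjusted p = 0.0426, edgeR) with 0 UMIs in those Kit+ cells, and 3 of 7 members fell, beside 6.94% of all genes, while none rose, beside 3.75%. Without somatic-marked cells 5 of 6 fell, beside 11.3%, and none rose, beside 8.3%. All 3 lost their call without BU 2 (adjusted p of 0.249 for Oasl2, 0.958 for Ifi27 and 0.954 for Isg15), and Ifi27 and Isg15 also without BU 1 (0.0889 and 0.222). In CTRL only 10 and 15 cells passed for Kit alone. With all cells 2 of 7 members fell there, beside 8.93% of all genes, and 3 rose, beside 11.9%, but without somatic-marked cells 1 of 6 fell, beside 4.36%, and none rose, beside 5.07%. Oasl2 was lower by 2.34 (log2 -2.34, SE 0.43, adjusted p = 0.00282, edgeR), at -1.09 without CTRL 2 (adjusted p = 0.844). Of the Kit+ cells of CTRL 2, 3 were somatic-marked, with a summed somatic marker level of 5232 CPM for the class, and CTRL rises of Ifi27 (1.42) and Bst2 (0.80) in Kit+ over Sox3+ cells turned to -1.90 and -0.94 without such cells. Against Gfra1+ cells, Kit+ cells of BU were lower in 4 of 7 members (Ifitm2, Ifitm3, Oasl2 and Ifi27), beside 17.2% of all genes, and higher in none, beside 14.3%. Without somatic-marked cells 2 of 6 were lower, Ifitm2 (log2 -1.49, adjusted p = 0.0186, edgeR) and Ifi27 (log2 -1.06, adjusted p = 0.00604), beside 21.7%, and none higher, beside 18.2%. In CTRL, Bst2 and Ifi27 were higher in Kit+ than in Gfra1+ cells, beside 9.36% of all genes, with none lower, beside 5.97%, and neither passed without somatic-marked cells, beside 4.72% higher and 3.7% lower.

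Among Gfra1+ cells, cycling cells were compared with the rest in the same way. Ifi27 was lower in cycling cells by 0.99 (log2 -0.99, SE 0.16, adjusted p = 0.000252, edgeR), with 60.7 against 71.9 CPM in CTRL 1, 31.3 against 90.0 in CTRL 2, 36.3 against 55.3 in BU 1 and 21.7 against 57.7 in BU 2. It stayed lower without somatic-marked cells (-0.45, SE 0.11, adjusted p = 0.00461, edgeR). Oasl2 passed with all cells (-0.53, SE 0.14, adjusted p = 0.0117, edgeR) and not without marked cells (-0.09, adjusted p = 0.714). Bst2 stood at 0.01 (SE 0.12, adjusted p = 0.953, edgeR), and Ifitm1 and Isg15 were too low to be tested. With all cells 4 of 5 members tested fell, beside 14.4% of all genes, and none rose, beside 16.9%. Without marked cells 1 of 4 fell, beside 11.9%, and none rose, beside 15.2%.

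Other genes of the interferon system were taken from lists by role, 116 genes in 7 groups, and kept whatever way they moved. The lists were drawn up with earlier results of these data known. Here BU was tested against CTRL. With condition as the only term no gene of any kind passed in Gfra1+, Sox3+ or Kit+ cells in edgeR, while 583, 2028 and 910 genes had an unadjusted p under 0.05 and DESeq2 called 15, 333 and 46. With the experiment as a replicate block edgeR called 9, 814 and 115 genes, and these blocked values are given for the listed genes below. In Sox3+ cells 12 of the 78 listed genes tested were lower and 1 was higher, beside 3.07% and 2.56% of all genes. Without somatic-marked cells 9 were lower and 1 higher, beside 2.04% and 1.52% of all genes. In Gfra1+ cells none of 78 passed in edgeR, with the block (beside 0.0293% of all genes lower and 0.0367% higher) or without it, and 8 had an unadjusted p under 0.05.

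Transcripts of the interferons themselves were nearly absent from the counts. Of 11 interferon genes, among them Ifnb1, Ifng, Ifne and Ifnk, 10 had 0 UMIs in Gfra1+ cells and 11 in Sox3+ cells, and the exception was 1 UMI of Ifnk in BU 2. With 45012421 and 56145111 UMIs summed over these classes, a count of 0 allows up to 0.0666 and 0.0534 CPM (3 counts of the total). The receptor genes were detected in every library, with Ifnar1 at 37.1 to 47.4 CPM and Ifnar2 at 6.88 to 10.3 CPM in Sox3+ cells. Neither passed (log2 -0.22, SE 0.19, adjusted p = 0.487 for Ifnar1, and 0.18, SE 0.27, adjusted p = 0.701 for Ifnar2, edgeR with the block).

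Of 12 signalling genes, 1 passed in Sox3+ cells. Irf2, a factor that binds the same promoter elements as other interferon regulatory factors and limits their activity, was lower in BU (9.37, 16.4, 3.63 and 6.51 CPM, log2 -1.34, SE 0.25, adjusted p = 0.0402, edgeR with the block), and is named although it fell outside the rule for named genes. Stat2 and Irf9, which encode transcription factors of the pathway, did not pass in Sox3+ cells. Stat2 had 11.2, 15.6, 9.18 and 6.35 CPM (log2 -0.83, adjusted p = 0.151, edgeR with the block) and Irf9 had 5.38, 6.32, 4.78 and 4.37 CPM (log2 -0.37, adjusted p = 0.427). In Gfra1+ cells Stat2 and Irf9 stood at -0.34 and -0.25 (adjusted p = 0.714 and 0.834, edgeR with the block). None of 7 inhibitor genes passed in any class, and their median in Sox3+ cells, without the block, was 0.17.

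Of 56 further interferon-stimulated genes, 35 had enough counts in Sox3+ cells, and 7 of these were lower and none was higher. Gbp2, a guanylate-binding protein, had 33.5, 25.1, 7.27 and 7.01 CPM (log2 -2.01, SE 0.23, adjusted p = 0.0236, edgeR with the block). Ifi35, which forms a complex with the product of Nmi, had 24.7, 16.0, 4.97 and 6.43 CPM (log2 -1.76, SE 0.30, adjusted p = 0.0373, edgeR with the block). Ifi47, an immunity-related GTPase, and Oasl1, a relative of Oasl2, were lower by 1.75 and 1.61 (log2 -1.75 and -1.61, adjusted p = 0.0485 and 0.0449, edgeR with the block), and the others were Gbp3, Nmi and Igtp. Without somatic-marked cells Ifi47, Oasl1 and Igtp missed the threshold (adjusted p of 0.057, 0.0557 and 0.0578, edgeR with the block). The median of the 35 in the fit without the block was -0.60, with 77.1% below 0, where all genes tested had a median of 0.02 and 48.8% below 0. In Gfra1+ cells the median was -0.30 with 68.6% below 0 (all genes 0.00 and 49.6%), and in Kit+ cells -1.04 over 18 genes (all genes -0.01).

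Among 7 sensors of foreign nucleic acid tested in Sox3+ cells, Zbp1 was lower, with 9.22, 7.49, 1.72 and 0.989 CPM (log2 -2.69, SE 0.34, adjusted p = 0.0272, edgeR with the block). Antigen presentation genes, many of which respond to interferon, moved in both directions in Sox3+ cells, with 3 of 12 lower and 1 higher. Psmb10, a catalytic subunit of the immunoproteasome, had 342, 328, 126 and 129 CPM (log2 -1.39, SE 0.14, adjusted p = 0.0224, edgeR with the block), Psme1, a subunit of a proteasome activator, had 433, 418, 202 and 240 CPM (-0.95, adjusted p = 0.0318), and Tapbp, which loads peptides onto class I molecules, had 121, 68.9, 47.0 and 32.0 CPM (-1.24, adjusted p = 0.0298). These 3 were named after their values were seen. H2-K1, a class I heavy chain, went the other way, with 6.05, 6.72, 19.5 and 26.1 CPM (log2 1.83, SE 0.23, adjusted p = 0.0262, edgeR with the block). B2m, the light chain that pairs with it, had 43.1, 30.1, 28.3 and 20.5 CPM (log2 -0.58, adjusted p = 0.12, edgeR with the block) and did not pass.

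**Figure D5:**
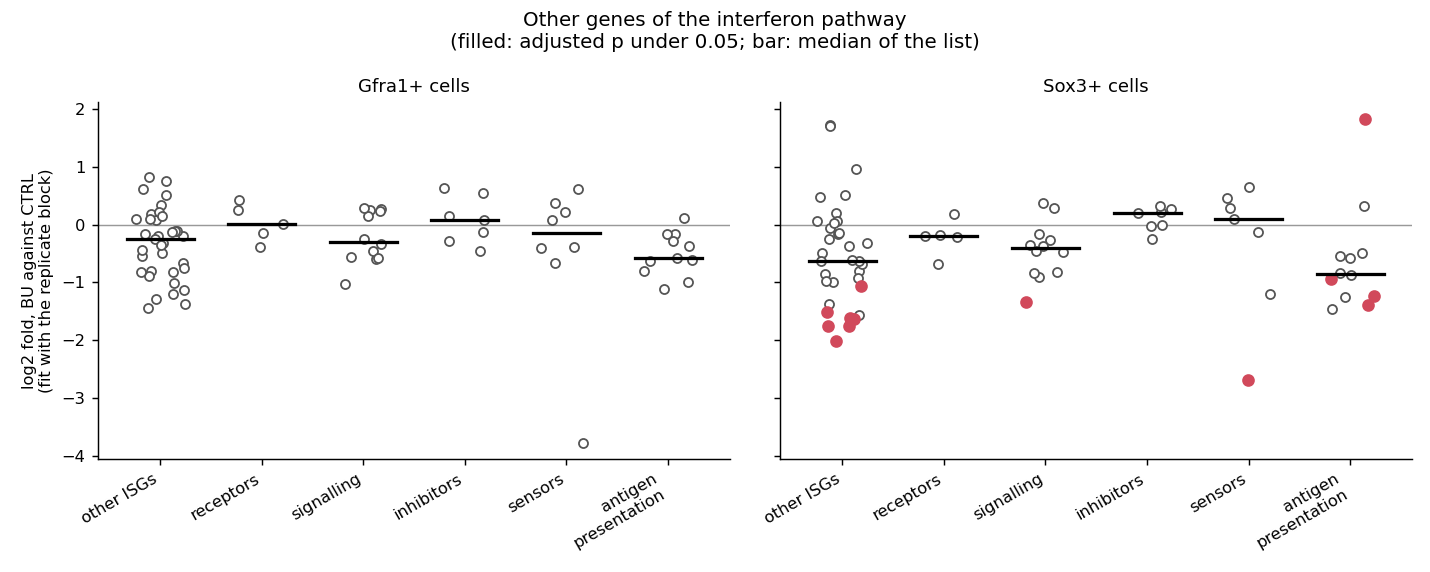
Log2 fold of BU against CTRL (edgeR with the replicate block) for each tested gene of 6 lists of the interferon system in Gfra1+ (left) and Sox3+ (right) cells, with filled points for an adjusted p under 0.05 and a bar for the median of a list. In Sox3+ cells 12 genes are lower and 1, H2-K1 at 1.83, is higher, while no gene is filled in Gfra1+ cells.

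In Kit+ cells 4 of 51 listed genes were lower, beside 0.934% of all genes, and none was higher, beside 0.109%. Irf2 had 9.53, 21.6, 0.889 and 1.65 CPM (log2 -3.60, SE 0.65, adjusted p = 0.0244, edgeR with the block). Ly6e (34.9, 145, 12.7 and 9.67 CPM, log2 -2.96), Irf8 (38.1, 56.7, 9.49 and 7.31 CPM, log2 -2.56) and B2m (54.0, 86.4, 16.6 and 10.0 CPM, log2 -2.50) also passed (adjusted p of 0.0244, 0.0276 and 0.0244, edgeR with the block). Those 3 missed the threshold without somatic-marked cells (edgeR with the block, adjusted p of 0.553, 0.112 and 0.193), and Irf2 kept it (log2 -3.14, adjusted p = 0.00924). With that gate 3 listed genes were lower, beside 1.27% of all genes, and none higher, beside 0.267%, the others being Psmb10 (log2 -1.21, adjusted p = 0.0268, edgeR with the block) and Tapbp (log2 -1.65, adjusted p = 0.0416), named after their values were seen.

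The genes with the profile most like the members were sought over the 12 sums, by Pearson correlation of log2(CPM + 1) with the mean standardised level of the 9 members among 8839 other genes with a mean of at least 10 CPM. Among the 10 closest were Gm973 (r = 0.93), Zfp395, Rnf181, Rsph9, Rbm43, Osbpl9, Nucb2, Tcf4 and Ptch1 (r = 0.88). The 12 sums share libraries and cells, so r is a description only. Every member had the same weight in the mean, also Ifit1 and Irf7 with few UMIs. So did Ifitm3, whose Gfra1+ UMIs lay mostly in somatic-marked cells, and the sums included those cells. None of the 10 was on a list of interferon genes. Gm973 had 31.8, 37.8, 17.6 and 20.2 CPM in Sox3+ cells and Ptch1, a Hedgehog receptor, had 32.0, 77.3, 11.9 and 19.1 CPM. The members' own correlations with that mean profile ran from 0.46 for Ifitm3 to 0.83 for Isg15.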

How the data were processed

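Single cells were profiled with the 10x Genomics platform in 4 libraries. The deposited files hold UMI counts per gene and cell, made by the authors with Cell Ranger (3.0.2 in the file headers) on mm10 as the study's methods state; the submitters' processing notes list GRCm39 and Seurat 3.2, so the build behind the counts is not settled here, and positions of genes were read from GENCODE M21 (GRCm38). Kit versions are those of the labels. Genes were matched by Ensembl ID (27514 in all libraries, of 27998 and 31053).

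The members and gene lists were chosen with earlier results of these data known. UMIs were summed per class and library, genes with low counts were removed with filterByExpr, and sums were scaled by TMM and tested with quasi-likelihood F tests in edgeR 4.0.16 (R 4.3.3), two-sided, with Benjamini-Hochberg adjustment at 0.05; DESeq2 1.42.0 was an alternative. BU was tested against CTRL with condition as the term, and with the experiment as a replicate block. Same-numbered libraries share a kit in the labels and, by the study's methods, a sequencing lane. They also deviated together (correlation of deviations from the group means 0.664, 0.615 and 0.490 in Gfra1+, Sox3+ and Kit+ cells), so the numbers pair the samples. Class contrasts used cells of 1 class only, with library as a term and the class difference separate for CTRL and BU. With 2 libraries per group an exact permutation test cannot go below p = 0.33. With condition as the only term, p-values measure the spread between libraries of pooled mice. With the experiment as a block, they measure how far the BU to CTRL difference varied between experiments. In class and cycling fits with a library term, they measure how far class or state differences varied from library to library. The biological coefficient of variation of the class fits was 0.346 without that term and 0.106 with it. Folds of members add nothing to the means, and their log2 adds 0.5 CPM. Class sums hold 330661 to 25279030 UMIs, which sets the precision of low genes. Doublet-marked cells, 10 to 77 per library, were kept and left out in an alternative. The fits were tested on simulated counts.

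Genes named were the 9 members, up to 5 listed genes per direction and class past the threshold, Stat2, Irf9, Ifnar1 and Ifnar2, and genes among the 10 most like the members; some results that the rule names are not reported here. Alternatives changed the tool, filter, scaling, positivity threshold, block, cells left out and libraries. The gate at 0.05% somatic UMIs, which also removes cells with over 2% spermatid UMIs, and the removal of shared barcodes were added after seeing the data.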

Additional observations from a re-analysis of the deposited data

Results flagged for a closer look

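Ly6e, an interferon-stimulated membrane protein gene, moved in opposite directions in 2 classes: BU against CTRL was 0.17 and 0.15 (log2, experiments 1 and 2) in Gfra1+ cells and -1.35 and -3.62 in Kit+ cells, with a mean of -2.48 in the latter. Ifnar2 did the same, with 0.24 and 0.28 in Gfra1+ cells and -0.16 and -1.89 in Kit+ cells (mean -1.03), but without somatic-marked cells Ifnar2 stood at 0.28 in Kit+ cells (0.32 with the replicate block), the same sign as in Gfra1+ cells. Without somatic-marked cells Ly6e stood at 0.88 in Gfra1+ cells (0.91 with the replicate block). In Kit+ cells Ly6e then missed the threshold in the fit with that block. Neither difference between the classes was tested, and Kit+ cells of CTRL numbered 36 and 37, of which 3 in CTRL 2 were somatic-marked. In somatic-marked cells, which no comparison of the 9 genes used on their own, Ifi27 averaged 607 CPM in BU and 418 CPM in CTRL, the opposite order to the Gfra1+ and Sox3+ classes. With 2 libraries per group no library could be examined as standing apart from its group.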

How the results depend on the processing

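Among single genes, 375 values kept their direction and side of the threshold, 47 passed only under the alternative, 32 no longer passed and 14 changed sign; the cause was not tested for any of them. Depth limits Ifit1, Irf7 and all Kit+ values of CTRL.

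Genes called for BU against CTRL, 0 in each class, numbered 9, 814 and 115 (Gfra1+, Sox3+, Kit+) with the replicate block, 15, 333 and 46 with DESeq2 and 50, 362 and 564 without a count filter. The stricter somatic gate with the replicate block gave 513 in Sox3+ and 167 in Kit+ cells. For Sox3+ against Gfra1+ cells in CTRL, 2810 genes became 192 without the replicate block and 1793 with DESeq2. In BU, 1389 became 0, 893, 2313 without somatic- and spermatid-marked cells and 2536 with the stricter gate. For Kit+ against Gfra1+ cells in CTRL, 2036 became 0 without the block, 3309 without a count filter, 1036 and 1083 with the 2 gates, and in BU 4187 became 429 without the block. For Kit+ against Sox3+ cells, 2759 in CTRL became 305 without the block, 4504 without a count filter and 1213 and 1211 with the gates, and 1419 in BU became 0, 2367 and 2525. Cycling against other Gfra1+ cells gave 3750 calls, 97 without the block and 2087 with DESeq2. Without the block, every class and cycling call of a member in edgeR was lost except Ifitm1 and Oasl2 in Sox3+ against Gfra1+ cells of CTRL (adjusted p = 0.0429 and 0.0442); the others had adjusted p from 0.0621 (Oasl2, Kit+ against Sox3+ in CTRL) to 0.774 (Ifitm3, Sox3+ against Gfra1+ in BU). With DESeq2, Isg15 in CTRL (0.156) was lost.

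The members' median in Gfra1+ cells, -0.60, was -0.44 with cells positive by any UMI, -0.88 with cells of 1 class, -0.6044 with the planned gate, -0.4367 without doublets, -0.65 without TMM, -0.62 in cells that are not cycling, -0.55 after thinning, -0.47 with the stricter gate, -0.57 without shared barcodes and -0.49 as a mean of cells. In Sox3+ cells it was -0.95 after thinning, and in Kit+ cells -3.04 with cells of 1 class. The main medians of Gfra1+ and Kit+ cells were values of Ifit1 and Irf7, which had few UMIs. Bst2 in cycling cells (0.01) was -0.02 without the block and with DESeq2 (-0.0212), -0.17 with a cycling cut of 3 and -0.0139 without shared barcodes. Ifnar1 in Gfra1+ cells (0.02) was -0.0711 without TMM and -0.0011 with the stricter gate and block.

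With 1 library left out, and the lone library of its group assumed to vary like the others, calls of BU against CTRL ranged from 0 to 25 in Gfra1+, 10 to 1329 in Sox3+ and 89 to 886 in Kit+ cells. Sox3+ against Gfra1+ ranged from 1282 to 3885 in CTRL and 92 to 3261 in BU, Kit+ against Gfra1+ from 15 to 4174 and 510 to 6111, Kit+ against Sox3+ from 2 to 5174 and 0 to 3472, and cycling from 2246 to 3226. The members' medians ranged from -1.05 to -0.22, -1.09 to -0.47 and -2.25 to -0.12. Ifi27 ranged from -0.0816 to 0.61 (Sox3+ against Gfra1+ in CTRL; -0.0816 without CTRL 1) and -0.17 to 0.22 (BU; -0.17 without BU 2), and Bst2 in cycling cells from -0.14 to 0.12. In Gfra1+ cells Stat2 ranged from -0.58 to 0.0028, Irf9 from -0.66 to 0.30 and Ifnar1 from -0.13 to 0.17, and Ifnar2 in Sox3+ cells from -0.14 to 0.43.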

Other observations

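Cells that passed for none of Gfra1, Sox3 and Kit and carried no somatic or spermatid marks also held transcripts of the members. They numbered 1142, 205, 597 and 384 in CTRL 1, CTRL 2, BU 1 and BU 2. Ifitm1 stood at 38.0, 6.62, 2.296 and 5.38 CPM and Oasl2 at 66.8, 18.9, 13.1 and 5.31 CPM in these cells. The 75 Ifitm1 UMIs of BU 2 lay in 6 cells, whereas the 342 of CTRL 1 lay in 190. The 34 Ifitm1 UMIs of CTRL 2 lay in 12 cells. CTRL 1 was the highest library for both genes. Levels of the other members in these cells are not given here. No test was made, and the cells were not assigned to a type.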
